A study of Mus musculus with 8 samples.

Results

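The genes described here were 43 imprinted genes of the mouse, taken by name as rows of the gene expression matrices of single hippocampal nuclei, in which all 43 were found among 32285 genes. The hippocampi came from wild-type C57BL/6J pups at postnatal day 21, male per the study's methods. Their mothers, adult females of 8 weeks, ate a diet with folic acid (FA) at either 2 mg/kg (the MF group, the control diet) or 20 mg/kg (the HF group, the excessive diet) for 2 weeks before mating and then through pregnancy and lactation. Each group had 2 libraries (MF1 and MF2, HF1 and HF2), and each library measured nuclear RNA and open chromatin (ATAC) in the same nuclei. The study treats the libraries of a diet as biological replicates, but how many pups went into each is not given in the sources used here. A p-value below thus rests on libraries and not on pups, with variances shared over genes in the fit. Both parental genomes are those of one inbred strain, so the allele of origin of a transcript could not be measured, and every value is the sum over both alleles.

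Genomic imprinting leaves a gene active mainly on the copy inherited from one parent. Methyl groups placed on imprinting control regions in the germ line keep the parental copies apart, and the zinc finger protein ZFP57, which binds a methylated TGCCGC hexamer, protects these marks after fertilisation. Folate supplies one-carbon units for methylation, and imprinted genes cluster in domains in which long non-coding RNAs lie beside growth regulators and genes used in the brain. In brain, some of them, such as Grb10 and Ube3a, are known to be imprinted in neurons in a way that differs from other cells.

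Of 14297 nuclei 11518 (80.6%) were retained, 2249 to 3473 per library with 20151562 to 29243072 unique molecular identifiers (UMIs) each. Between 13 and 27 cell barcodes were shared by any pair of libraries. Nuclei were clustered without the 43 genes, and clusters were called from marker lists as excitatory neuron-like (EXC, 4857 nuclei), inhibitory neuron-like (INH, 761), astrocyte-like (AST, 1283), oligodendrocyte progenitor-like (OPC, 887), oligodendrocyte-like (ODC, 580) and microglia-like (MG, 709). EXC held CA1-like (897), CA3-like (426), mature dentate granule-like (DG-M, 1861) and immature dentate granule-like (DG-i, 1013) nuclei. The other EXC nuclei had no subtype name and entered only EXC and the sum over all nuclei, so no order among subtypes covers them. Orders of levels below are among these 6 classes and 4 subtypes, and the small vascular-like (VAS, 145) and Cajal-Retzius-like (CR, 98) clusters entered no test and are described on their own. Each class led in its defining marker, for instance Mog at 1497.6 to 1913.7 UMIs per 1000000 (CPM) in ODC against at most 89.7 elsewhere and Ptprc at 425 to 569 CPM in MG against at most 11 elsewhere. The summed marker list of a class was highest in that class for INH, AST, OPC, ODC and MG, but the 42 EXC markers together stood at 6220.0 to 6787.0 CPM in EXC and 6046.0 to 8361.5 in ODC, which overlapped. The 16 ODC markers together stood at 4610.2 to 5791.7 CPM in OPC, against 37203.3 to 42081.7 in ODC. A cluster led by Pdgfra and Cspg4 held 591 of the 887 OPC nuclei. Progenitors and differentiating precursors were not separated within OPC, and their parts in its levels were not tested. RNA of neurons was also present in glia: 8 neuron genes together stood in the 4 glial classes at 9.68 to 25.6% of their level in EXC. A level below is the CPM of the nuclei of one population summed per library, and it is compared between populations for the same gene, not between genes.

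The 43 imprinted genes together took a larger share of the RNA in neurons than in glia, and most of the difference was Meg3. The 43 genes took 0.737 to 0.785% of all UMIs of a library, and Meg3, a long non-coding RNA, gave 0.342 to 0.388% alone. Their share was 1.16 to 1.29% in INH and 0.757 to 0.788% in EXC. It was 0.273 to 0.316% in OPC and 0.188 to 0.263% in AST, ODC and MG, so the glial ranges did not reach those of the neurons. Meg3 alone had a mean of 6893.4 CPM in INH and 22.5 CPM in ODC. At the other end, Phlda2 was seen with 1 UMI in all nuclei, H19 with 5, Peg12 with 10 and Magel2 with 63, and their levels cannot be ranked at this depth.

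**Figure D1:**
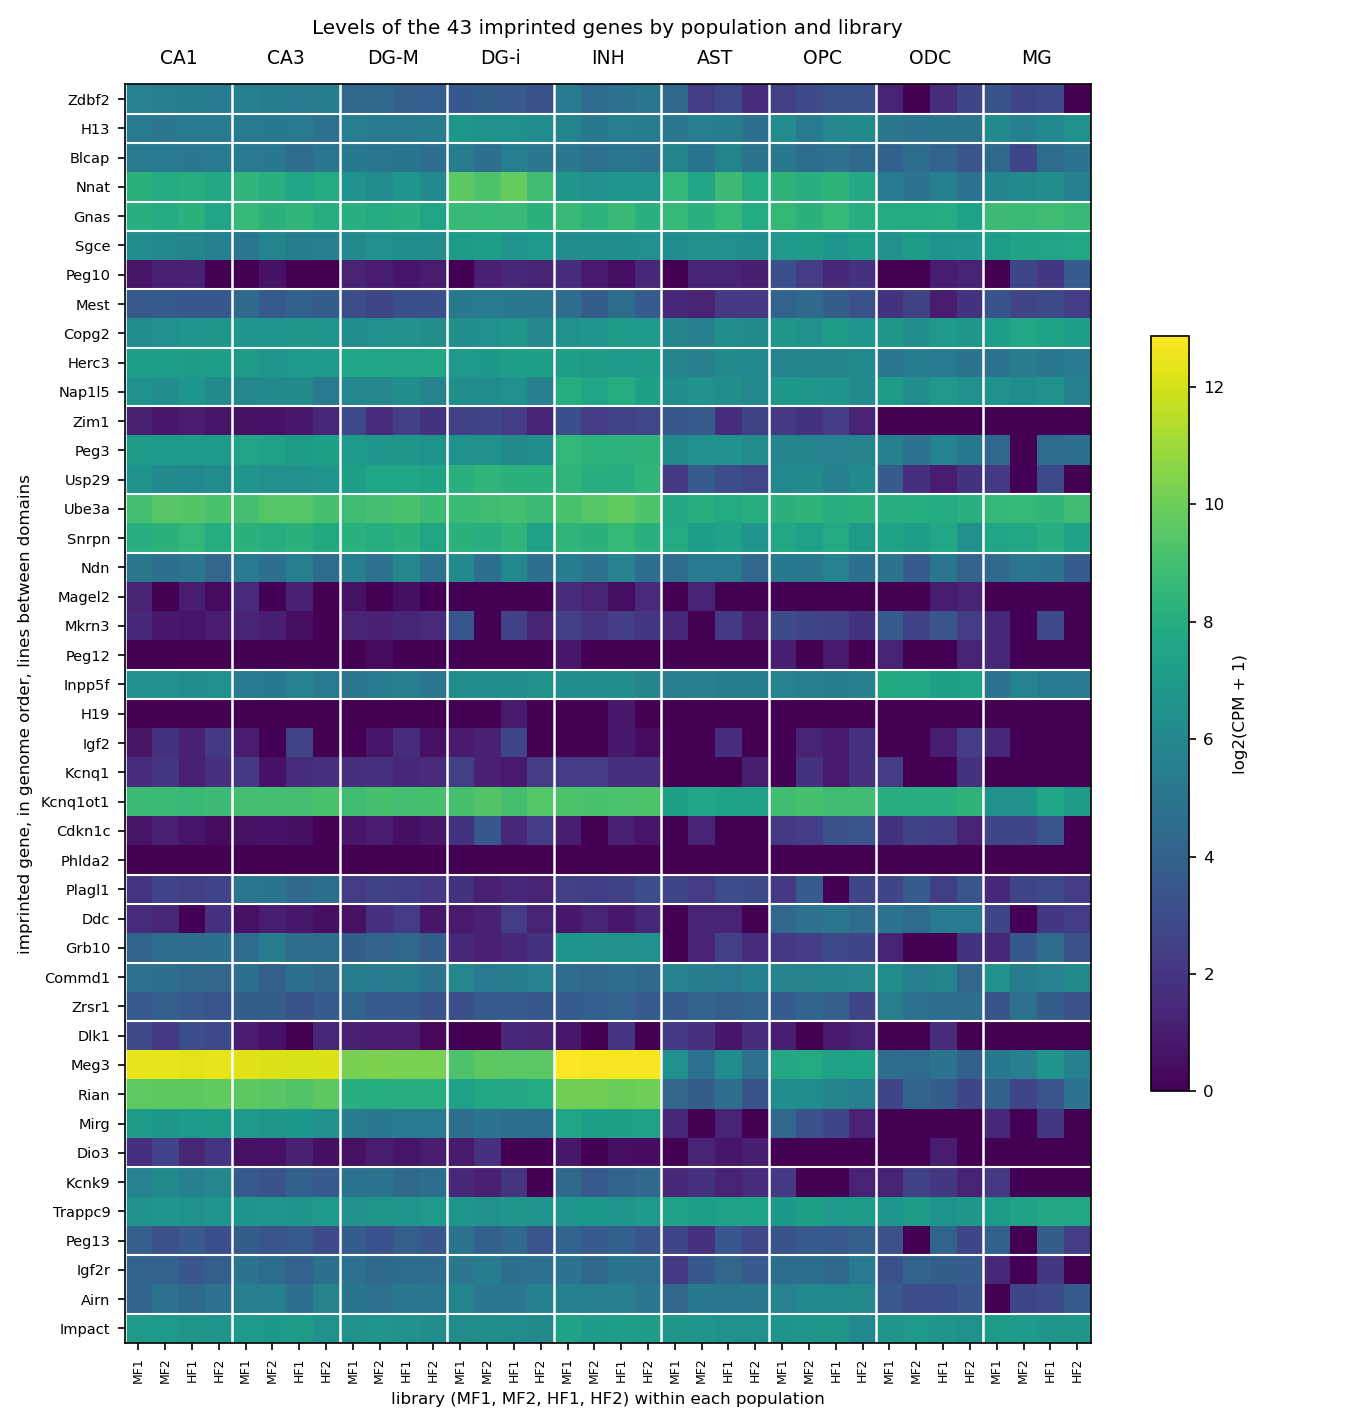
Level of the 43 imprinted genes as log2(CPM + 1), genes in rows in genome order with domains separated, and 9 cell populations with 4 libraries each (MF1, MF2, HF1, HF2) in columns. Meg3, Rian and Mirg are bright in the neuronal columns and dark in AST, ODC and MG, and the 4 libraries of a population look alike.

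The first comparison asked which imprinted genes differ between neurons (mean of EXC and INH) and glia (mean of AST, OPC, ODC and MG), over all 4 libraries with the library as a term in edgeR. A gene was called at an adjusted p under 0.05 (Benjamini-Hochberg over all 12541 genes tested) and at least a 2-fold difference. Of the 43 genes 30 had enough counts to be tested, and 14 were called higher in neurons, where 20.3% of all genes tested were called higher, and 1 lower, where 11.4% of all were. The median log2 difference was 0.85 over the 30 members against 0.02 over all genes. The other 13 were not tested because of low counts (Dlk1, Dio3, Zim1, Magel2, Mkrn3, Peg12, Peg10, Kcnq1, Cdkn1c, Phlda2, H19, Igf2 and Plagl1). Since a gene high in one class passes such a filter more easily, the counts describe the 30 genes and not imprinted genes at large. With MG left out of the glial mean, an alternative chosen after seeing the data, 12 members were called higher (18.4% of all genes) and 1 lower (11.9%), with a median of 0.68, and Igf2r (0.71) and Airn (0.72) were the 2 no longer called.

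**Figure D2:**
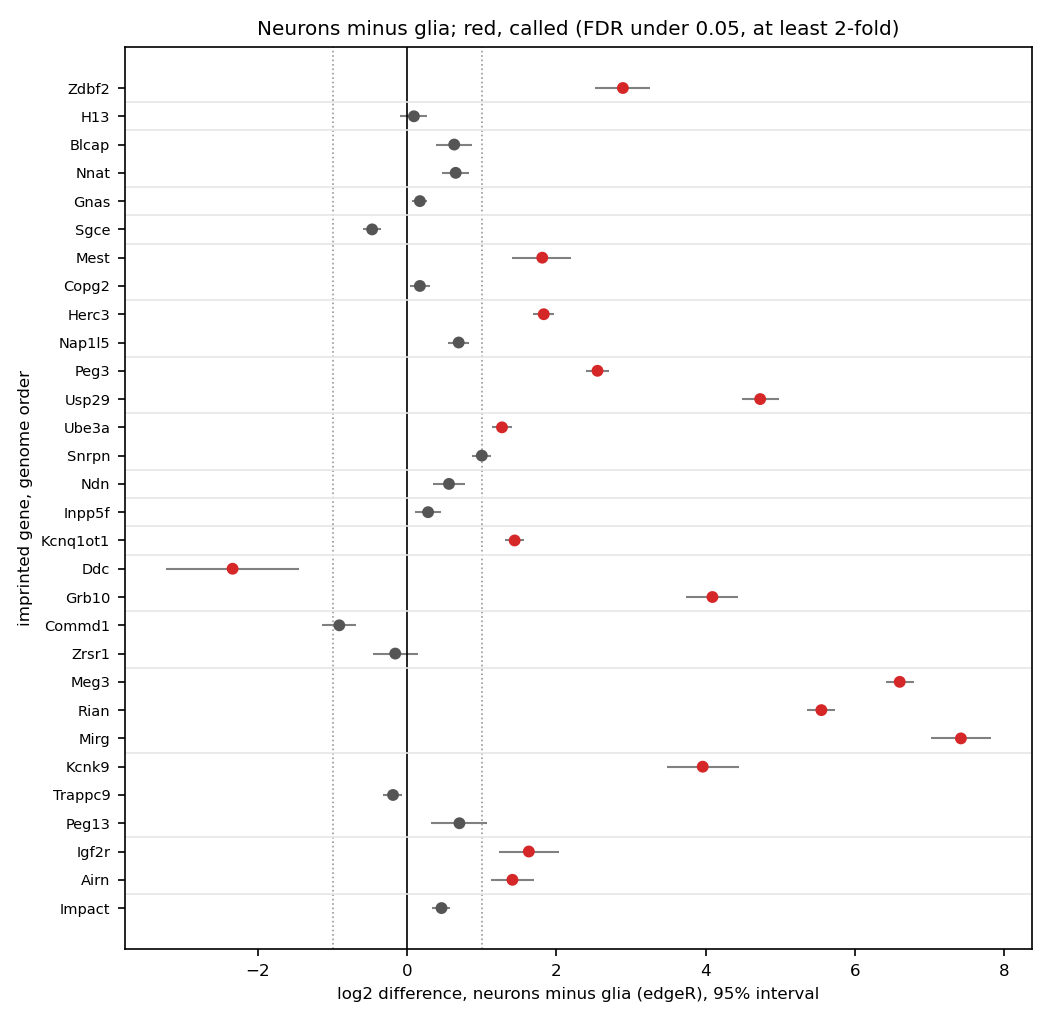
Log2 difference, mean of EXC and INH minus mean of AST, OPC, ODC and MG, for the 30 imprinted genes tested, with 95% intervals over 4 libraries and genes past the call threshold in red. Mirg, Meg3, Rian, Usp29 and Grb10 lie at the right at 4.09 to 7.42, and Ddc is the 1 called gene at the left at -2.34.

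On chromosome 12 (mm10), Dlk1, Meg3, Rian, Mirg and Dio3 lie within 828275 bp. In this domain the non-coding RNAs Meg3 (chr12:109541001-109571726, plus strand), Rian and Mirg are read from the maternal copy in the same direction and host small RNAs, while Dlk1, a Notch-related membrane protein, and Dio3, which inactivates thyroid hormone, are paternal genes. The promoter of Meg3 is shown because its openness and its RNA parted in one cell class below. It is the RefSeq stretch of 250 bases before the start site at chr12:109540746-109540995 (GRCm38.p6, plus strand), printed 5′ to 3′, and capitals mark the letters TGCCGC or TATAAA on either strand. The hexamer lay 190 to 185 bases upstream, as GCGGCA, and TATAAA lay 25 to 20 bases upstream, overlapped by its reverse complement at 29 to 24.
Meg3: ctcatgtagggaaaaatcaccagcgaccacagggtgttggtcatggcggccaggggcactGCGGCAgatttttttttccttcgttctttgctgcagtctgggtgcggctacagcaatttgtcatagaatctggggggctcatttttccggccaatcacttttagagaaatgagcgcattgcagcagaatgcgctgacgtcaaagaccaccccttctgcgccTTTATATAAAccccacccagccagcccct
Meg3 stood at 7450.4, 6793.0, 6689.2 and 6641.2 CPM in INH of MF1, MF2, HF1 and HF2. In EXC it stood at 3807.3, 3939.4, 3660.0 and 3875.8 CPM, below each INH value. OPC had 219, 233, 172 and 178 CPM, the highest of the glia, and AST, ODC and MG had 15 to 98.6 CPM. The order was INH, EXC, OPC and then MG, AST and ODC, of which the last 3 overlapped. Between neurons and glia the log2 difference was 6.60 (SE 0.10, n = 4 libraries, adjusted p = 2.29e-43, edgeR), a 97-fold difference. The level of Meg3 in AST, ODC and MG was 0.386 to 2.69% of that in EXC. The 8 neuron genes stood in these glia at 9.68 to 25.6%, which is higher. In OPC Meg3 was at 4.59 to 5.92% and the 8 neuron genes at 17.8 to 23.6%. What part of the glial Meg3 is free RNA was not tested.

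Rian, a host of small nucleolar RNAs, and Mirg, a host of microRNAs, were also highest in INH and then in EXC. Rian stood at 993 to 1069.4 CPM in INH, 606 to 665 in EXC, 46.6 to 76.7 in OPC and at most 28.5 in AST, ODC and MG, and differed between neurons and glia by 5.55 (SE 0.09, adjusted p = 2.35e-41, edgeR). Mirg stood at 192, 152, 159 and 166 CPM in INH, 88.5 to 101 in EXC, and 19.2, 8.04, 5.48 and 1.37 in OPC. It had 3 UMIs in AST, 2 in MG and none in ODC, and its OPC range overlapped that of MG. The neuronal ranges lay above every glial one, and the fitted neuron to glia difference of 7.42 (SE 0.20, adjusted p = 1.2e-31, edgeR) depends on how a class at 0 is handled. Mirg passed the low-count filter through the neurons, where it was high, so its call is no support for that difference. The pooled counts of 6665 UMIs in neurons and 35 in glia gave a ratio of 33.6 (exact 95% interval 24.1 to 48.3, counting error only). Over the 9 populations the Pearson correlation with Meg3 was 0.996 for Rian and 0.997 for Mirg, the closest of the other members with UMIs in these populations, followed by Zdbf2 (0.954), Snrpn (0.937) and Ube3a (0.936). These 9 points share libraries and depth, so the values are a description.

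Among the 4 named EXC subtypes the 3 RNAs followed the hippocampal field. Of the 202088 UMIs of Meg3 in EXC, CA1 held 64275, CA3 40099, DG-M 19835 and DG-i 2689. The rest lay in EXC nuclei without a subtype name, which this order leaves out. Meg3 was at 5178.7 to 5343.8 CPM in CA1 and 4373.0 to 5000.3 in CA3, against 1207.3 to 1271.0 in DG-M and 612 to 782 in DG-i, with no overlap between neighbours. The mean of CA1 and CA3 exceeded DG-M by 2.13 for Meg3 (SE 0.06, adjusted p = 4.92e-28), 1.77 for Mirg (SE 0.08, adjusted p = 3.14e-22) and 1.64 for Rian (SE 0.06, adjusted p = 3.4e-24, all log2, edgeR). DG-i differed from DG-M by -1.0 for Meg3 (SE 0.07, adjusted p = 2.65e-15, edgeR), just under the 2-fold minimum. Within the oligodendrocyte line the RNAs were lower in ODC than in OPC, by -2.85 for Meg3 (SE 0.26, adjusted p = 4.89e-13) and -2.48 for Rian (SE 0.30, adjusted p = 9.21e-10, edgeR). For Mirg, with 30 UMIs in OPC and 0 in ODC, the level was at least 8.15-fold lower in ODC, taking 3 counts over the 4 ODC libraries (1.06 CPM) as the limit.

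The protein genes of the domain were near the floor. Dlk1 had its highest mean in CA1, at 7.07, 3.53, 7.69 and 6.37 CPM, which overlapped AST. In CA3 it stood at 0.948, 0.552, 0 and 1.74 CPM, with no overlap with CA1. The pooled counts of 77 UMIs in CA1 and 7 in CA3 gave a ratio of 7.69 (exact 95% interval 3.56 to 19.8, counting error only). DG-M held 14 UMIs and DG-i 3, so Dlk1 passed the low-count filter through CA1, where it was high, and its calls between neuron types are no support for that difference. Dio3 stood at 0.99, 1.44, 0.821 and 1.09 CPM over all nuclei.

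**Figure D3:**
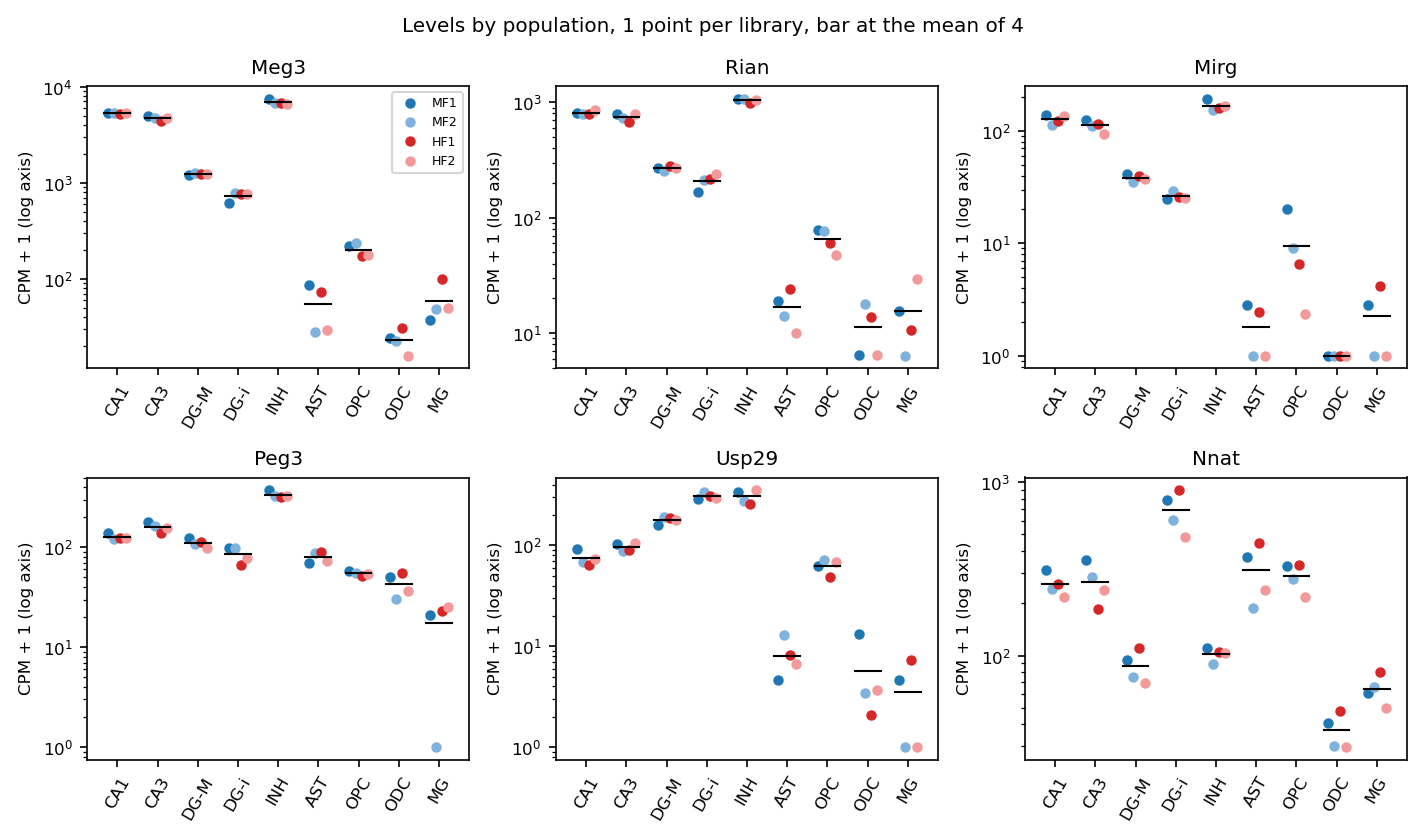
Levels of Meg3, Rian, Mirg, Peg3, Usp29 and Nnat as CPM + 1 on a log axis in 9 populations, 1 point per library in the colour of its diet and a bar at the mean of 4 libraries. The first 3 panels share one profile from INH down to ODC, Usp29 is high in both INH and DG-i, and Nnat is highest in DG-i and lowest in ODC.

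On chromosome 7, Zim1, Peg3 and Usp29 span 295951 bp. Peg3 (chr7:6703892-6730431, minus strand) encodes a zinc finger protein and Usp29 (chr7:6730578-6967219, plus strand), named as a ubiquitin peptidase gene, starts from the same short stretch in the other direction. Both are paternally expressed. The stretch is shown because it serves both genes, whose RNA followed different orders of the glial classes. It is chr7:6730420-6730669 (GRCm38.p6), read from the minus strand in the direction of Peg3, and it held neither motif.
Peg3: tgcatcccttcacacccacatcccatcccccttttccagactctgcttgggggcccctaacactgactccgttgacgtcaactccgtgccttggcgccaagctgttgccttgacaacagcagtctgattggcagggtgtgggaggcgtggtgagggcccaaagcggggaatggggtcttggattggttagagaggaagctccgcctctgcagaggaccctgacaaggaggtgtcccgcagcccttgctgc
Peg3 stood at 371, 323, 320 and 326 CPM in INH and at 155, 145, 145 and 142 in EXC. It had 68.5 to 89.7 CPM in AST, 50.3 to 57.5 in OPC, 29.2 to 54.1 in ODC and 0 to 24.4 in MG. The neuron to glia difference was 2.55 (SE 0.08, adjusted p = 1.2e-30, edgeR).

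Usp29 stood at 340, 277, 257 and 350 CPM in INH and at 138 to 148 in EXC. It had 47.5 to 71.0 CPM in OPC, 3.61 to 11.8 in AST, 1.06 to 12.3 in ODC and 0 to 6.36 in MG. The neuron to glia difference was 4.73 (SE 0.12, adjusted p = 1.11e-33, edgeR), and ODC was below OPC by -3.45 (SE 0.35, adjusted p = 8.56e-12, edgeR), where Peg3 differed by -0.03 (SE 0.19). Within neurons Usp29 had 289 to 336 CPM in DG-i, 158 to 190 in DG-M and 62.8 to 91.9 in CA1, the reverse of the order of Meg3, though neither DG-i against DG-M (0.55, SE 0.09) nor the CA fields against DG-M (-0.97, SE 0.08) reached 2-fold. Both genes were higher in INH than in EXC, Peg3 by 1.13 (SE 0.08, adjusted p = 1.95e-16) and Usp29 by 1.04 (SE 0.09, adjusted p = 8.16e-14, edgeR), although the call for Usp29 was lost without MF1 at 0.94. Zim1, a zinc finger gene expressed from the maternal copy, had 243 UMIs in all. Among the 6 classes its mean was highest in AST, at 10.8, 11.8, 2.17 and 4.53 CPM on 22 UMIs, overlapping INH at 3.74 to 7.84, and it had no UMI in ODC or MG. Within EXC it stood at 2.23 to 6.08 CPM in DG-M and 1.34 to 5.17 in DG-i against at most 1.74 in CA1 and CA3. Its UMIs numbered 65 in DG-M, 14 in DG-i, 8 in CA3 and 11 in CA1, so it passed the low-count filter through DG-M, where it was high, and its call there is likewise no support.

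The Prader-Willi and Angelman region lies on chromosome 7, with Ube3a and Snrpn in one group (911470 bp) and Ndn, Magel2, Mkrn3 and Peg12 in the next (117942 bp). Snrpn, which encodes a spliceosome protein, and Ndn, a MAGE family protein of neurons, are paternal genes, and Ube3a, a ubiquitin ligase, is maternal in neurons. The promoter that overlapped an open region is shown, chr7:60005200-60005449 (GRCm38.p6, minus strand), because it held no ATAC counts in MG, where Snrpn RNA was present. It held neither motif.
Snrpn: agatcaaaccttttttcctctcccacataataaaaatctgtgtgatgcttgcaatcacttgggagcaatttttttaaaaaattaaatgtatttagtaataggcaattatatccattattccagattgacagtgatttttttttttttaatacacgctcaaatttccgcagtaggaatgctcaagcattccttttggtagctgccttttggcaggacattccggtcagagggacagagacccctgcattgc
Snrpn was broadly expressed, at 283 to 387 CPM in INH, 212 to 326 in EXC, 171 to 273 in MG and 95.3 to 236 in AST, OPC and ODC, and every class overlapped its neighbour in the order. The neuron to glia difference was 1.0 (SE 0.06, adjusted p = 3.69e-19, edgeR), at 1.99-fold just under the 2-fold minimum. Ube3a stood at 570 to 834 CPM in INH, 499 to 649 in EXC, 356 to 464 in MG and 216 to 324 in the other glia, and its difference of 1.27 (SE 0.06, adjusted p = 1.95e-22, edgeR) was called. Reads of Ube3a cannot be told from those of the overlapping Snhg14 if strand was not kept, which the sources used here did not state. Ndn stood at 22.2 to 45.5 CPM over all nuclei with overlapping neighbours throughout the order of classes, Mkrn3 (211 UMIs in all) had its highest mean in ODC at 4.08 to 12.3 CPM, overlapping OPC, and Magel2 and Peg12 were too low to place.

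On chromosome 11, Grb10 and its neighbour Ddc showed opposite patterns. Grb10, an adaptor that damps growth factor receptors and is paternal in neurons, stood at 99.7, 93.4, 95.1 and 90.8 CPM in INH. It stood at 22.8, 29, 29.3 and 23.7 CPM in EXC and at 0 to 6.40 in AST, OPC and ODC. Both neuron to glia (4.09, SE 0.17, adjusted p = 1.6e-25) and INH to EXC (1.81, SE 0.10, adjusted p = 7.8e-20) differences were called with edgeR, the second being the largest INH excess among members. Grb10 passed the low-count filter through the neurons, where it was high, so its neuron to glia call is no support for that difference. In DG-i there were 7 UMIs of Grb10 against 245 in DG-M (12.9 to 18.6 CPM), a difference of -3.21 (SE 0.40, adjusted p = 6.7e-09, edgeR) and a pooled ratio of 8.08 (exact 95% interval 3.86 to 20.3). MG had 1.81, 10.8, 22.3 and 8.13 CPM, and in the MG nuclei of HF1, the highest, a list of 10 choroid plexus genes stood at 3776.7 CPM, against 8.13 to 19.9 in MG of the other libraries. The 22 markers of vascular-like (VAS) nuclei stood at 45.3, 382, 235 and 102 CPM in MG of MF1, MF2, HF1 and HF2, lowest in MF1 as Grb10 was, and VAS itself held 262 to 468 CPM of Grb10. The part of such RNA was not tested. The excess of Grb10 in MG over other glia, 1.66 (SE 0.60, adjusted p = 0.0185, edgeR), rested on 12 UMIs (pooled ratio 3.14, exact 95% interval 1.46 to 6.35). The call was lost without HF1, at 1.0, without MF2, at 1.49, and without likely doublets, at 0.67. Ddc, which makes dopamine and serotonin from their precursors, was the 1 member called lower in neurons. It stood at 28.8, 21.9, 40.3 and 38.1 CPM in ODC and 19.2, 26.8, 33.8 and 23.3 in OPC against at most 1.69 in EXC and INH, and AST and MG were low too, at 0 to 5.44 CPM. Ddc passed the low-count filter through OPC and ODC, where it was high, so its call (a log2 difference of -2.34, SE 0.44) is no support for the difference.

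On chromosome 17, Igf2r and the non-coding RNA Airn, which silences the paternal copy of Igf2r in most tissues, overlap on opposite strands. Igf2r (chr17:12682406-12769664, minus strand) clears IGF2 and carries enzymes to lysosomes, and it is known to be read from both copies in neurons. Its promoter, at chr17:12769707-12769956 (GRCm38.p6, minus strand), is shown because its openness set MG apart from the other classes, and it held neither motif.
Igf2r: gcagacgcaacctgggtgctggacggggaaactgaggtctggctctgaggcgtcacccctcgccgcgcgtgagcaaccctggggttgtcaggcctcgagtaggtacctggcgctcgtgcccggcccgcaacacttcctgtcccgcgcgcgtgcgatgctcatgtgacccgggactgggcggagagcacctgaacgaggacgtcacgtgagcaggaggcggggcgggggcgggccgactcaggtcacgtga
Igf2r stood at 21.0 to 30.5 CPM in INH, 18.2 to 25.3 in EXC and 20.1 to 39.7 in OPC, which overlapped, and at 3.61 to 18.1 in AST and ODC. MG had 1.81, 0, 3.18 and 0 CPM, 2 UMIs in all, below each other class. MG was lower than the other glia by -3.67 (SE 0.69, adjusted p = 1.4e-05, edgeR), and the pooled counts of 2 and 170 UMIs gave an 11.2-fold ratio (exact 95% interval 3.05 to 93.2). Among the 6 classes Airn was highest in OPC, at 50.8, 64.3, 63.1 and 64.4 CPM, above the 34.9 to 49.3 CPM of INH. It was low in ODC (7.29 to 11 CPM, a difference from OPC of -2.49, SE 0.27, adjusted p = 8.54e-11, edgeR) and in MG (0, 5.38, 6.36 and 12.2 CPM, 6 UMIs), a difference from the other glia of -2.78 (SE 0.46, adjusted p = 1.3e-06, edgeR).

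The distal chromosome 7 domain of H19, Igf2, Kcnq1, Kcnq1ot1, Cdkn1c and Phlda2 (927622 bp) gave 1 abundant RNA. Kcnq1ot1, a non-coding RNA inside Kcnq1 that silences its neighbours on the paternal copy, stood at 579 to 619 CPM in INH, 494 to 544 in EXC and 475 to 546 in OPC. It stood at 263 to 331 CPM in ODC, 159 to 186 in AST and 96.0, 96.8, 191 and 130 in MG. MG was below the other glia by -1.52 (SE 0.14, adjusted p = 1.58e-13, edgeR). The genes that Kcnq1ot1 lies beside were scarce, with 205 UMIs for Kcnq1, 149 for Cdkn1c, a cell cycle inhibitor, and 1 for Phlda2 in all nuclei. Among the 6 classes Cdkn1c had its highest mean in OPC, at 3.38 to 9.59 CPM, overlapping MG and ODC. Igf2, a growth factor made by choroid plexus and meninges, had 307 UMIs, of which 172 were in HF1 and 155 in the 145 VAS nuclei.

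On chromosome 2, Nnat (chr2:157560078-157562522, plus strand), a small membrane protein gene of neural development, lies inside an intron of Blcap on the opposite strand. Its promoter, chr2:157559828-157560077 (GRCm38.p6, plus strand), is shown because both its openness and its RNA were low in ODC and MG, and it held neither motif.
Nnat: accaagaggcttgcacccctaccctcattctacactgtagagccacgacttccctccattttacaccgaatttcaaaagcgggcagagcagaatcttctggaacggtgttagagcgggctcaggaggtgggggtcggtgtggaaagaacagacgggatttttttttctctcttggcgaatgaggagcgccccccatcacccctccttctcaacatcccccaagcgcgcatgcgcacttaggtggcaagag
Among the classes and subtypes Nnat was highest in DG-i, at 792, 609, 898 and 480 CPM against 93.7, 73.8, 109 and 68.3 in DG-M. The DG-i to DG-M difference was 2.76 (SE 0.12, adjusted p = 9.53e-23, edgeR). It was 3.26-fold higher in the CA fields than in DG-M (1.70, SE 0.10, adjusted p = 8.13e-18) and lower in INH, at 88.7 to 110 CPM, than in EXC, at 205 to 310 CPM (-1.40, SE 0.10, adjusted p = 1.04e-15, edgeR). AST held 368, 187, 447 and 237 CPM and OPC 328, 275, 331 and 216. ODC had 28.6 to 46.7 CPM, -2.71 against OPC (SE 0.18, adjusted p = 5.74e-18, edgeR). In DG-i, AST, OPC and ODC both replicate 1 libraries were higher than both replicate 2 libraries, and the diets overlapped. Blcap, a gene of cell cycle and death control, stood at 29.4 to 55.0 CPM in AST and 5.38 to 28.5 in MG and ODC, and each class overlapped its neighbour in the order.

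On chromosome 6 there were 3 domains. Mest, a hydrolase-like gene of the paternal copy, was the other gene called higher in DG-i, at 36.3, 37.5, 34.1 and 33.5 CPM against 7.48, 5.41, 7.92 and 7.86 in DG-M, a difference of 2.03 (SE 0.19, adjusted p = 6.43e-12, edgeR), while H13 (0.93) and Inpp5f (0.92) stayed under 2-fold there. Mest was also lower in ODC than in OPC, with 7 against 49 UMIs, a pooled ratio of 5.7 (exact 95% interval 2.57 to 14.9). Its neighbour Copg2, a coat protein gene of transport vesicles, was present in each class and highest in MG at 140, 199, 175 and 146 CPM, above the 80.2 to 138 CPM of INH, OPC and ODC. The promoter of Copg2, chr6:30896795-30897044 (GRCm38.p6, minus strand), is shown as the counterpart that was called more open in glia under 1 of 4 scalings, TMM over all regions, and its capitals mark the hexamer as GCGGCA, 116 to 111 bases upstream.
Copg2: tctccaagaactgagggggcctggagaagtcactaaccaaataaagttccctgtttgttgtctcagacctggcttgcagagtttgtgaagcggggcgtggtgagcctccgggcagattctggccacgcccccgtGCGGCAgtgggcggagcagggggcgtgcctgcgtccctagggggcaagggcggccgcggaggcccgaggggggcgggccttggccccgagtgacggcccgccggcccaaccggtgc
Nap1l5, a nucleosome assembly protein gene inside Herc3, was higher in INH than in EXC by 1.41 (SE 0.08, adjusted p = 4.88e-19, edgeR), at 246, 191, 253 and 159 against 80.4, 70.8, 92.1 and 61.6 CPM. Herc3, a ubiquitin ligase gene on the other strand, was highest in DG-M at 184 to 198 CPM and was higher in neurons by 1.83 (SE 0.07, adjusted p = 1.03e-26, edgeR). Sgce, a sarcoglycan whose loss causes myoclonus dystonia, was highest in MG at 147 to 203 CPM and lowest in EXC at 62.1 to 73.0 CPM, without reaching the 2-fold minimum between neurons and glia (-0.47, SE 0.06), and Peg10, which shares its start region, had 115 UMIs in all.

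On chromosome 15, Kcnk9, a potassium leak channel gene, separated neuron types. It stood at 51.0, 69.8, 48.0 and 61.8 CPM in CA1 against 11.4, 8.84, 15.2 and 12.6 in CA3, a difference of 2.25 (SE 0.15, adjusted p = 1.2e-15, edgeR). DG-M had 20.1 to 29.3 CPM and DG-i 6 UMIs, -4.14 (SE 0.37, adjusted p = 1.38e-12, edgeR) with a pooled ratio of 15.4 (exact 95% interval 7.03 to 42.3). Among the 32 members tested this was the lowest value of DG-i against DG-M. Trappc9, a vesicle tether gene, had overlapping neighbours in the order of classes, at 95.5 to 213 CPM over the 6 classes, and Peg13, a non-coding RNA within it on the same strand, stood at 9.18 to 16.4 CPM over all nuclei and could hold reads of Trappc9 introns.

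The remaining genes had patterns of their own. Plagl1, a zinc finger regulator of growth, was highest of the classes and subtypes in CA3, at 32.7, 31.5, 20.4 and 23.9 CPM against 2.95 to 5.1 in CA1, a difference of -2.58 (SE 0.21, adjusted p = 1.81e-13, edgeR). CA3, where it held 228 UMIs against 53 in CA1 and 65 in DG-M, carried it past the low-count filter. Its calls with CA3 are thus no support for the difference. Its lower level in DG-i (7 UMIs) than in DG-M was called at -1.32 (SE 0.49, adjusted p = 0.0232, edgeR), but the pooled ratio of 2.14 had an exact 95% interval of 0.984 to 5.54, and the call was lost without MF2 (-1.15), HF1 (-1.29) or HF2 (-1.30), with DESeq2 (-1.35) and with the members among the clustering genes (-1.0). Inpp5f, a phosphoinositide phosphatase gene, was high in ODC, at 225, 202, 153 and 161 CPM against 53.0, 44.2, 41.1 and 47.9 in OPC (2.24, SE 0.14, adjusted p = 7.57e-19), and higher in CA1 than in CA3 (1.15, SE 0.11, adjusted p = 8.69e-12, edgeR), a call lost at a higher clustering resolution at 0.78. Zrsr1, a splicing factor gene copied into an intron of Commd1, was also higher in ODC, at 43.9, 26.7, 23.3 and 23.1 CPM against 5.48 to 17.4 in OPC (1.51, SE 0.27, adjusted p = 8.19e-06, edgeR). Among the 6 classes Zdbf2 was an EXC and INH gene, at 35.2 to 40.8 CPM in EXC, and CA1 and CA3 exceeded DG-M by 1.54 (SE 0.10, adjusted p = 9.44e-17, edgeR). Gnas (the G protein alpha subunit), Impact, Commd1 and H13 were expressed in each class and were called in none of the 8 comparisons between populations.

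In the 2 small clusters some members stood above every class and subtype. The levels below rest on few UMIs, the clusters entered no fit, and the values are a description with no test. VAS held 31578 to 114292 UMIs per library, and its leading genes included both endothelial (Flt1) and fibroblast (Col1a1, Slc6a13) genes. There Igf2 stood at 697, 387, 647 and 506 CPM in MF1, MF2, HF1 and HF2, against at most 5.53 in any class or subtype. Grb10 stood at 443, 459, 262 and 468 CPM, above the 90.8 to 99.7 CPM of INH. Airn stood at 443, 254, 341 and 318 CPM, above the 50.8 to 64.4 CPM of OPC, while its partner Igf2r stood at 31.7, 109, 96.2 and 37.5 CPM on 23 UMIs. Every library of VAS thus lay above every class for Igf2, Grb10 and Airn. Gnas was also above every class, at 586 to 918 CPM against at most 474. Nnat was uneven, at 95, 1692.6, 516 and 1611.1 CPM, and Plagl1 rested on 10 UMIs. CR, with 45039 to 95166 UMIs per library, had the highest Kcnq1ot1, at 1198.7, 1487.6, 1218.9 and 1391.6 CPM against at most 718 in any class or subtype. Cdkn1c stood at 33.1 to 56.5 CPM in CR, on 13 UMIs, and at 12.1 to 61.2 in VAS, on 12, against at most 10.3 in any class or subtype. CR also held 30 UMIs of Zdbf2 and 29 of Ndn, pooled levels above the mean of every class and subtype.

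The other comparisons between populations called fewer members, and each count stands beside the share of all genes. INH exceeded EXC for 4 of 30 members tested (7.54% of all genes) and was lower for 1 (5.06%). ODC exceeded OPC for 2 (11.1%) and was lower for 7 (19.8%), with member and overall medians of -0.35 and -0.08, the first also -0.35 with Mirg at its limit. MG exceeded the other glia for 1 (16.6%) and was lower for 7 (20.6%), which besides Igf2r, Airn and Kcnq1ot1 were Usp29 (-2.37, SE 0.66, adjusted p = 0.00208, on 4 UMIs in MG, and 1.88 at a higher clustering resolution), Peg3 (-1.99, SE 0.26, adjusted p = 9.14e-09, and -0.78, not called, at that resolution), Nnat (-1.61, SE 0.20, adjusted p = 1.54e-09) and Inpp5f (-1.33, SE 0.20, adjusted p = 1.65e-07, edgeR). The median difference in MG was -0.53 over members and -0.10 over all genes.

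Within neurons, DG-i exceeded DG-M for 2 of 32 members tested (10.3% of all genes) and was lower for 3 (10.4%). CA1 exceeded CA3 for 3 (3.92%) and was lower for 1 (5.45%). The mean of CA1 and CA3 exceeded DG-M for 7 (8.81%) and was lower for 1, Zim1 (6.53%). Meg3, Rian, Mirg, Nnat and Zdbf2 were higher than DG-M in each field, Dlk1 (1.48, SE 0.53) only in CA1, and Plagl1 (1.52, SE 0.21) only in CA3, while the levels of the other field overlapped those of DG-M. For the reason given above, the calls of Zim1, Dlk1 and Plagl1 are no support for these differences. As between neurons and glia, a gene high in one subtype passes the filter more easily, and the counts describe the 32 genes tested. No member was called by edgeR between the 2 interneuron groups (CGE-like against MGE-like), where 24 were tested, 5.03% and 3.48% of all genes were called higher and lower, and 6 members had an unadjusted p under 0.05. DESeq2 called none there either, and the MGE-like group held 72 nuclei, 8 of them in MF2.

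The ATAC files gave the openness at the starts of these genes. Of 42 open regions within 500 bp of a start of 38 members, 40 regions of 36 members were tested between neurons and glia, and Rian, Mirg, Ndn, Kcnq1 and H19 had none. By the same contrast 15 regions were called more open in neurons and 2 less open. Over regions at the starts of any gene 23.5% were called more and 12.4% less open, and over all regions 56.6% and 7.7%. The member median was 0.60, that of regions at any start -0.37 and that of all regions 1.58, and 27 of the 40 lay above the median of starts. The split of calls depends on the scaling: with RLE size factors it was 21 more and 0 less open, with total counts 19 and 0, and with TMM computed over start regions 21 and 0, as these move the median of all regions to 2.08, 1.84 and 2.05.

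Most of these calls rested on MG. Of the 40 regions 8 (20%) had no count in MG in any library (Ddc, Dio3, Dlk1, Magel2, Meg3, Peg3, Snrpn and Zim1), as did 11.1% of regions at any start, and 0 of 7631363 MG counts allows up to 0.393 CPM. The region of Peg3 at chr7:6729284-6729981 was at 18.2 to 20.9 CPM in EXC and 16.2 to 24.2 in INH, yet at 22.9 to 29 in AST, 26.3 to 38.3 in OPC and 25.1 to 32.7 in ODC, and at 0 in MG. That of Igf2r (chr17:12769238-12770151) was at 26.2 to 41.5 CPM in neurons, 28.2 to 45.6 in AST, OPC and ODC and 0 to 1.75 in MG. With MG left out of the glial mean 4 member regions were called more open in neurons (17.4% of regions at any start) and 3 less open (14%), and the member median was -0.20 against -0.44 over starts. Those more open were Meg3 (3.59, SE 0.29), Dio3 (1.48, SE 0.42), Magel2 (1.28, SE 0.29) and the second region of Peg10 (1.03, SE 0.20). Those less open were Gnas (-1.15, SE 0.08), Peg12 (-1.54, SE 0.24) and a region of Mkrn3 (-1.48, SE 0.25), and Copg2, at -0.95 (SE 0.07), was no longer called. The contrast without MG was fitted only with TMM over all regions, so its split was not checked under the other scalings. Without MG the region of Peg3 at chr7:6729284-6729981 differed by -0.83 (SE 0.11) in place of 1.91, that of Igf2r by -0.26 (SE 0.09) in place of 1.10, that of Snrpn by 0.44 (SE 0.19) in place of 2.62 and that of Zim1 by -0.32 (SE 0.12) in place of 2.29. Fitted values with a class at 0 also depend on the prior count.

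At Meg3 (chr12:109540456-109541309) the pattern was another one. The region was at 14.3 to 15.6 CPM in EXC, 13.5 to 16.0 in INH and 9.49 to 14.6 in OPC, against at most 0.914 CPM in AST and ODC and 0 in MG, a neuron to glia difference of 5.12 (SE 0.34, adjusted p = 1.48e-49, edgeR). In OPC the openness was thus 63.7 to 102% of that in EXC, while the RNA was 4.59 to 5.92% of that in EXC. The 8 neuron genes stood in OPC at 17.8 to 23.6% of EXC, and the part of free RNA was not tested. Snrpn (chr7:60004767-60005605) was at 7.78 to 13.1 CPM in neurons, 3.87 to 12.2 in AST, OPC and ODC and 0 in MG, although its RNA in MG was 67.8 to 83.7% of that in EXC. At Nnat (chr2:157559593-157560520) OPC was highest with 14.8 to 22.4 CPM, and ODC with 0.457 to 2.77 and MG with 0 to 1.17 were lowest. The regions less open in neurons were those of Copg2 (chr6:30896283-30897171, -1.02, SE 0.07, adjusted p = 2.98e-49), with 84.0 to 95.2 CPM in MG against 34.3 to 41.0 in EXC, and of Gnas (chr2:174329495-174330392, -1.03, SE 0.08, adjusted p = 2.9e-40, edgeR). Both calls were absent under the other 3 scalings.

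**Figure D4:**
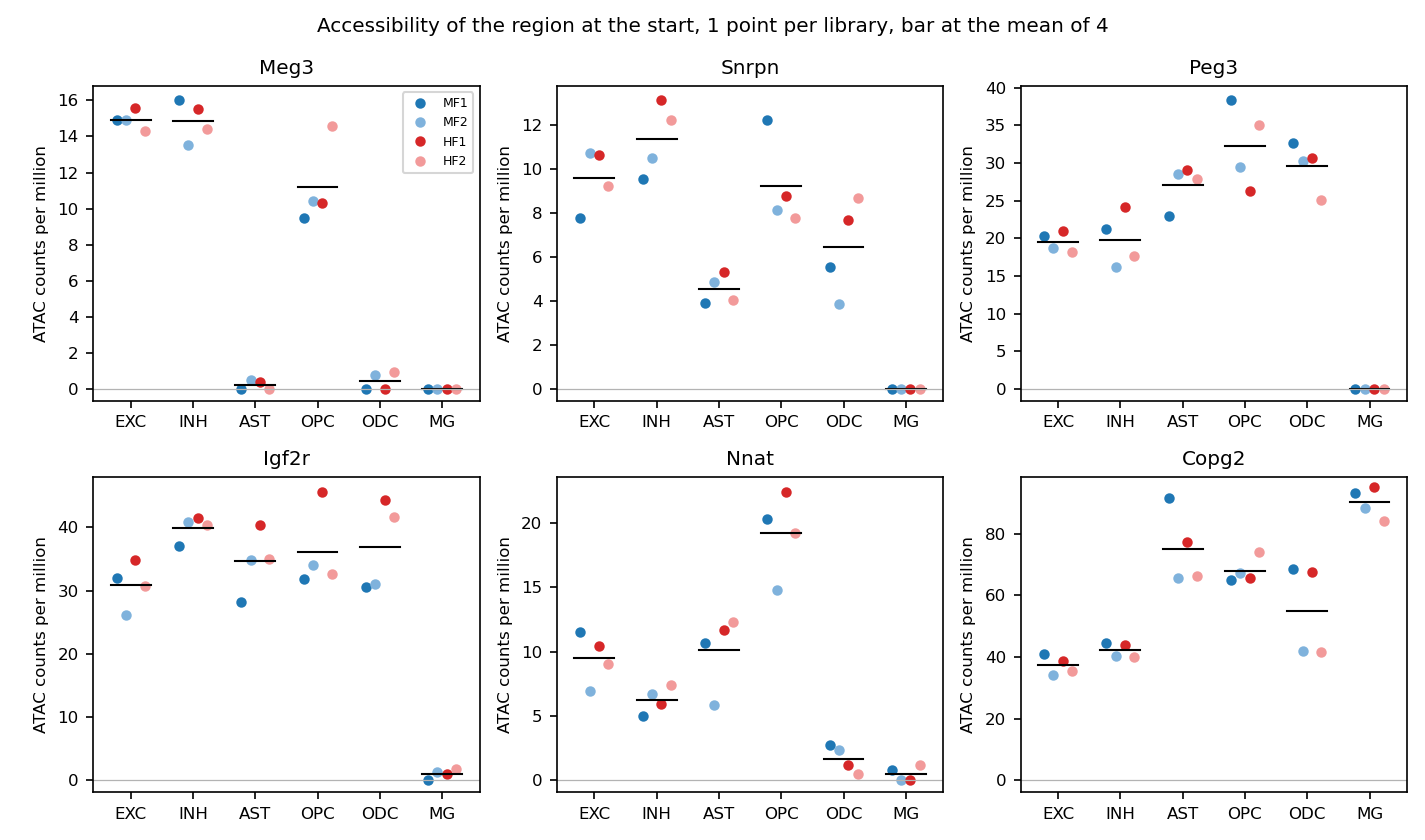
ATAC counts per 1000000 at the start regions of Meg3, Snrpn, Peg3, Igf2r, Nnat and Copg2 in 6 cell classes, 1 point per library and a bar at the mean of 4 libraries. OPC stands with the neurons at Meg3, MG is at or near 0 at the first 5 genes, and MG is among the highest classes at Copg2.

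The letters TGCCGC, on either strand, occurred in the 250 bases before 8 of 50 RefSeq starts of members (16%, 7 genes: Copg2, Meg3, Mest, Nap1l5, Plagl1, Zdbf2 and Zim1), against 8.68% of 32851 starts of all genes. TATAAA, on either strand and at any place in the 250 bases, occurred before 12 (24%) against 12.4%. Among those 12, 2 starts of Gnas share the same letters. Of the 8, 2 are starts of Mest that lie 3 bases apart and share the same letters. The member promoters held a median of 10 CpG and 54.8% GC against 6 and 52.4% over all. These are matches of letters and no measure of binding, and 9 members had no entry in the sequence table.

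Factors that set or keep imprints were measured beside the members, from a list of 24. Of the 18 tested between neurons and glia 1 was called higher (20.3% of all genes) and 1 lower (11.4%), with a median of -0.13 against 0.02 over all genes. Zfp57, the reader of the hexamer, was higher in neurons by 2.38 (SE 0.23, adjusted p = 2e-12, edgeR) but was at 14.6 to 20.3 CPM in OPC against 9.68 to 15 in EXC, 18.0 to 25.7 in INH and 85.9 to 110 in DG-i. Ezh2, a histone methyltransferase, was lower in neurons by -1.25 (SE 0.11, adjusted p = 1.83e-14, edgeR). Of 36 further imprinted genes found in the matrices, 22 were tested, with 7 called higher and 6 lower in neurons beside the same shares of all genes, and a median of -0.28. Rtl1, read on the other strand of the Meg3 domain, was higher by 5.86 (SE 0.34), and Gab1 and Pon2 were lower by -4.67 (SE 0.09) and -4.01 (SE 0.17). They are named because their absolute differences were the largest of that list. A gene high in one group passes the low-count filter more easily, so their values are a description.

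The diet comparison asked whether maternal FA moved the sum of both alleles of these genes in the pups. No member was called between HF and MF at an adjusted p under 0.05 and 1.2-fold in any of 11 populations, by edgeR or by DESeq2. In all nuclei 40 members were tested, 1 had an unadjusted p under 0.05, and 0% of all genes were called (1.08% had such a p). In EXC 40 were tested, again with 1 such p (1.03% of all genes), and 0% of all genes were called. OPC was the only population in which any gene was called (0.0421%), none of them among the 25 members tested. The 4 genes, named after their values were seen, were the haemoglobin genes Hba-a1, Hba-a2, Hbb-bs and Hbb-bt, all lower in HF. Members with an unadjusted p under 0.05 numbered 2 of 15 in MG (3.07% of all genes), 1 of 31 in CA1 (1.76%) and 1 of 30 in CA3 (1.99%). There were 0 such members of 32 in INH (1.67%), 22 in AST (2.61%), 25 in OPC (2.17%), 20 in ODC (2.31%), 32 in DG-M (1.82%) and 27 in DG-i (1.49%). Over the 11 populations the member medians lay between -0.09 and 0.10 on the log2 scale. In the sum over all nuclei, a change in the share of a cell class and one in its RNA cannot be told apart. The number of AST nuclei was 177 and 253 in MF1 and MF2 and 518 and 335 in HF1 and HF2. For ODC it was 145 and 82 against 196 and 157, and for EXC, INH, OPC and MG the diets overlapped. The libraries also differed in nuclei retained, and the part of these numbers in the values of all nuclei was not tested.

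The precision of this comparison differed by gene. In all nuclei the 95% interval of 34 of the 40 members lay within a 2-fold change in either direction. Meg3 stood at 3877.9 and 3770.2 CPM in the MF libraries and 3418.6 and 3782.1 in the HF libraries, which overlapped, a difference of -0.02 (SE 0.39, 95% interval -0.89 to 0.85, unadjusted p = 0.961 and adjusted p = 1, edgeR). The ranges of the diets did not overlap for 8 of the 40 members, 2 higher and 6 lower in HF, where they did not for 18.3% of all genes. In EXC they did not overlap for 13 of 40, 3 higher and 10 lower, against 20.5% of all genes.

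Igf2 had the smallest p among members in all nuclei and in EXC. Its levels over all nuclei were 1.39 and 2.33 CPM in MF1 and MF2 and 5.88 and 1.99 CPM in HF1 and HF2, so HF1 stood apart and HF2 lay within the MF range. The difference was 1.12 (SE 0.47, 95% interval 0.08 to 2.16, unadjusted p = 0.0374, adjusted p = 1, edgeR), and it was 0.24 without HF1 and 1.6, past the threshold, without MF2. A list of 10 choroid plexus genes was at 208 CPM in HF1 against 27.5 to 37.7 in the others, and at 12538.1 CPM in the vascular-like nuclei of HF1, a cluster in which Igf2 was among the 10 leading genes, and the part of such RNA in the Igf2 value was not tested. In EXC Igf2 had 68 UMIs and differed by 1.39 (SE 0.55, unadjusted p = 0.0295, edgeR). The choroid plexus list stood in EXC nuclei at 37, 30.7, 114 and 26.2 CPM in MF1, MF2, HF1 and HF2, and Igf2 there at 0.366, 1.1, 2.36 and 1.17 CPM, so HF1 was the highest in both, and its part was not tested. In VAS the diets overlapped, with Igf2 at 697 and 387 CPM under MF and at 647 and 506 under HF.

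**Figure D5:**
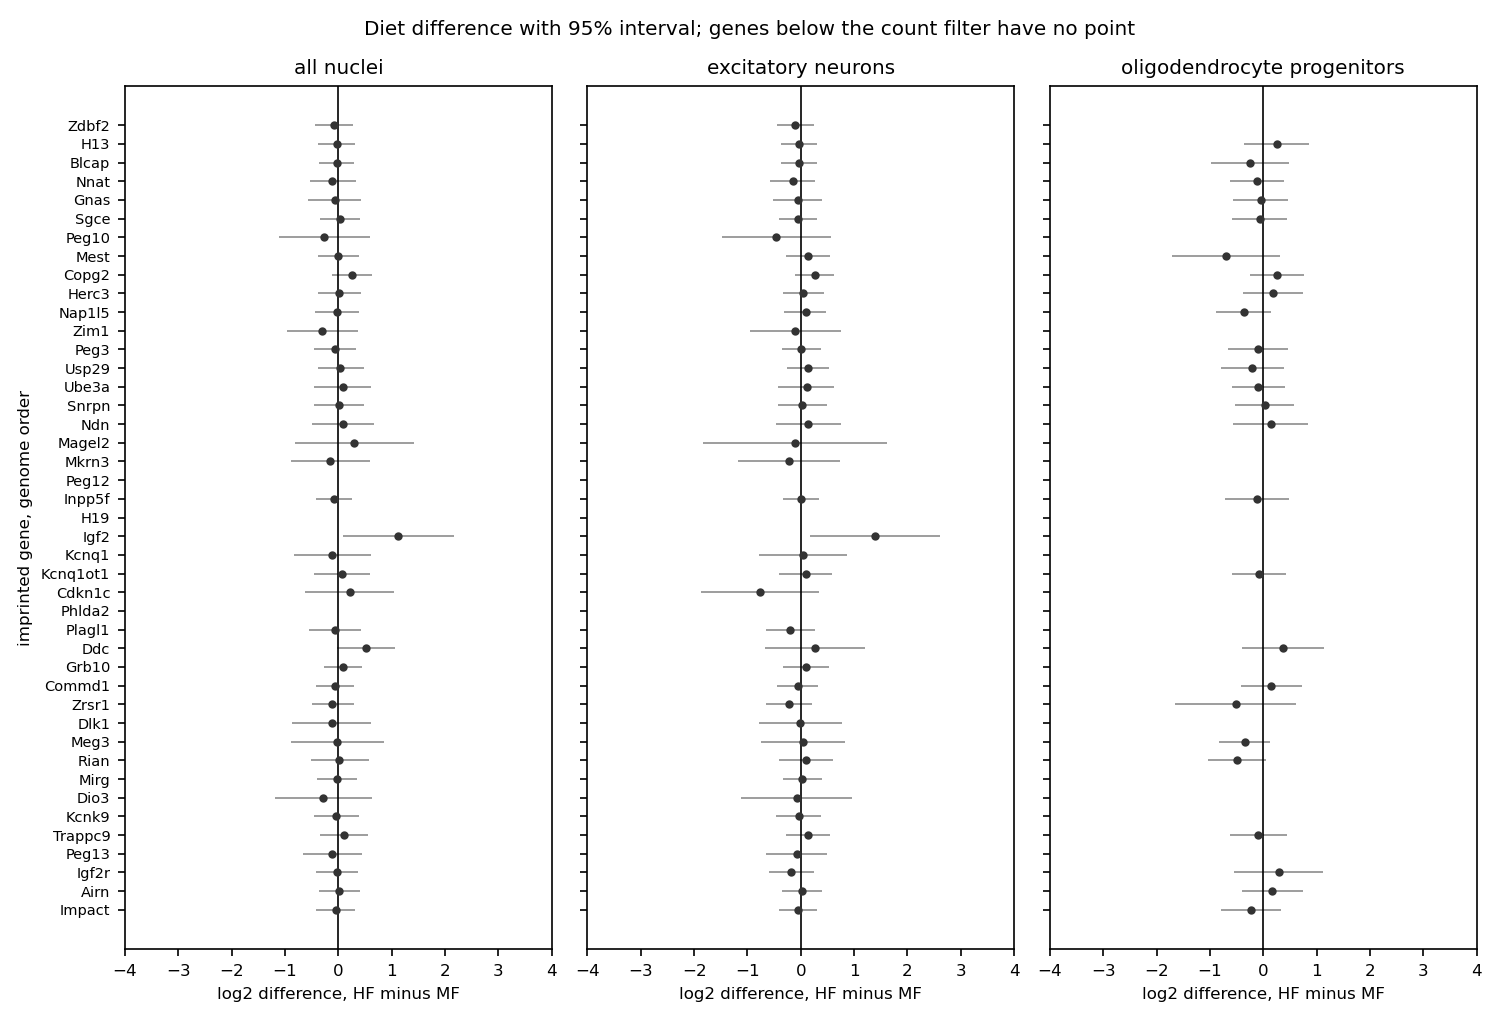
Log2 difference HF minus MF of the members tested in all nuclei, EXC and OPC, with 95% intervals from 2 libraries per diet. In all nuclei and EXC 39 of 40 intervals cross 0, in OPC all 25 do, and none is called, and Igf2 has the largest difference in the first 2 panels.

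In the single populations the members of smallest p were as follows, none called. In CA1 the MF libraries had 75.7 and 87.4 CPM of Copg2 and the HF libraries 107 and 110, a difference of 0.47 (SE 0.18, unadjusted p = 0.0217, edgeR), and also had the smallest p in INH (0.36, SE 0.18, unadjusted p = 0.0667). In CA3 Nnat stood at 357 and 282 CPM under MF and at 185 and 238 under HF (-0.50, SE 0.20, unadjusted p = 0.026, edgeR), but its difference in DG-i, where it was most abundant, was 0.03 (SE 0.32). Kcnq1ot1 in MG stood at 96.0 and 96.8 CPM under MF and at 191 and 130 under HF (0.76, SE 0.31, unadjusted p = 0.0228, edgeR). Meg3 in MG differed by 0.92 (SE 0.44, unadjusted p = 0.0497, edgeR), on 72 UMIs. It stood there at 0.952 and 1.23% of its EXC level in MF1 and MF2 and at 2.69 and 1.26% in HF1 and HF2. HF1 thus stood apart and HF2 was near MF2. Beside both genes stands the choroid plexus list, at 19.9 and 10.8 CPM in MG of MF1 and MF2 and at 3776.7 and 8.13 in MG of HF1 and HF2. Its part in these values was not tested. Rian in OPC stood at 76.7 and 76.3 CPM under MF and at 59.4 and 46.6 under HF (-0.50, SE 0.26, unadjusted p = 0.0701, edgeR). In the same OPC nuclei 5 erythroid genes together stood at 10847.4 and 2219.3 CPM under MF and at 384 and 464 under HF, and their part in this value was not tested. Of the others, Igf2r in AST differed by 1.06 (SE 0.57), Commd1 in ODC by -0.68 (SE 0.39), Zdbf2 in DG-M by -0.42 (SE 0.24) and Herc3 in DG-i by 0.39 (SE 0.23), with each diet interval reaching 0.

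A test of whether the diet difference itself differed between neurons and glia called 0 of 31 members and 0% of all genes with edgeR. Airn had the smallest p (-0.84, SE 0.40, unadjusted p = 0.0406), where 4.49% of all genes had an unadjusted p under 0.05. At the start regions 0 of 42 were called between diets in all nuclei or in EXC, where 0.0162% and 0.00716% of all regions were, and 1 region had an unadjusted p under 0.05 in each, where 4.36% and 3.5% of all regions had. The smallest p was that of a region of Mkrn3 (chr7:62419189-62419900) in both, at -0.38 (SE 0.17, unadjusted p = 0.0245) and -0.62 (SE 0.21, unadjusted p = 0.00401, edgeR), and DESeq2 called none either. In the 24 imprint factors and the 36 further imprinted genes none of those tested (10 to 20 and 9 to 28 per population) was called between diets in any of the 11 populations, with 0 to 2 unadjusted p under 0.05 in each.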

How the data were processed

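Per the labels and the study's methods, the authors aligned the paired RNA and ATAC reads of each library to mm10 with Cell Ranger ARC 2.0.1 and deposited, for each of 4 libraries, a matrix of raw UMI counts per gene and of ATAC counts per peak, with peaks called per library. The ATAC counts were mostly even numbers (81.1 to 83.1% of values), so they are cut sites more than fragments. The members and lists were chosen with earlier results of these data known.

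The study's limits were used to retain nuclei, namely a mitochondrial share below 2%, between 500 and 7000 genes, and between 1000 and 70000 counts of ATAC. Its filters on nucleosome signal and start-site enrichment were not applied, since fragments were not used here. Nuclei were clustered with scanpy 1.11.5 (3000 variable genes without the 43 members, 20 components, 20 neighbours, resolution 0.8) and named from marker lists. The 20% detection minimum for naming and the resolution of 0.2 within INH were set after seeing cluster markers but before any test of members or diet. Scrublet's automatic threshold marked 0 to 22% of nuclei and a score over 0.05 marked 14.3 to 16.3%. Doublets were kept, and leaving out those over 0.05 was an alternative. The nuclei of clusters with mixed (1111) or no (1087) names entered only the sum over all nuclei.

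Counts were summed per library and population and tested with edgeR 4.0.16 (quasi-likelihood, TMM, low-count filter), with the library as a term between populations and HF against MF between diets. Adjusted p-values are Benjamini-Hochberg over all genes tested. Named genes were those called in a comparison, the member of smallest p per diet comparison, and the members of each domain with their levels. ATAC peaks were merged over libraries into 253748 regions, of which the 154785 with a peak in all 4 were used, and a region belonged to a gene within 500 bp of an annotated start (GENCODE M21). Promoter sequences were those of RefSeq (GRCm38.p6), found for 34 members. The tests were checked on simulated counts. Libraries of the same number were not paired by the labels. Alternatives were DESeq2 1.42.0, other scalings and filters, each library left out, a replicate block, no likely doublets, members returned to clustering and a higher resolution. Intervals from pooled counts cover counting error only.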

Additional observations from a re-analysis of the deposited data

How the results depend on the processing

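Of the counts of calls, 246 stayed within 1.5 times their value under the alternatives and 16 moved. The 246 include the counts between diets that were 0 and stayed 0, so they say little about the counts above 0. With a 1.2-fold minimum the calls between populations, beside the share of all genes called, rose to 25 of 30 for neurons against glia (64.7%), 14 of 30 for INH against EXC (38.7%), 17 of 30 for ODC against OPC (47.4%), 17 of 30 for MG against other glia (53.3%), 19 of 32 for DG-i against DG-M (46.3%), 12 of 32 for CA1 against CA3 (26.1%), 24 of 32 for the CA fields against DG-M (46.4%), 1 of 24 for CGE against MGE (12%) and 35 of 40 for the start regions (80.9% of regions at any start). With no low-count filter they were 10 for INH against EXC and 1 for CGE against MGE. At the higher resolution they were 8 for INH against EXC and 10 for DG-i against DG-M. For the start regions they were 26 with a 2 kb window and 7 with glia without MG. Usp29 in MG against other glia changed sign at the higher resolution, to 1.88 on few UMIs. The causes were not tested. Leaving out each library gave 15 to 17 calls for neurons against glia, 5 to 6 for INH against EXC, 9 to 10 for ODC against OPC, 7 to 9 for MG, 5 to 7 for DG-i against DG-M, 4 to 5 for CA1 against CA3, 8 for CA against DG-M and 15 to 20 for start regions. Between diets it gave 0 to 1 in all nuclei, the 1 being Igf2 without MF2, at 1.6, and 0 in each other population.

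Replicate numbers are shared by the diets, but nothing in the labels pairs them. Same-numbered libraries deviated together with a correlation of 0.32 in all nuclei and 0.33 in EXC over 2 pairs, and with the replicate block 0 members and 0 start regions were called between diets. Only the called members of largest difference in each direction of a comparison between populations were followed singly under the alternatives. Among them, the calls lost under 1 or more alternatives were those of Usp29 between INH and EXC (0.92 to 1.0) and Grb10 (0.67 to 1.49) and Peg3 (-0.78) in MG. Plagl1 between DG-i and DG-M (-1.0 to -1.35) and Inpp5f between CA1 and CA3 (0.78) also lost theirs. With MG left out of the glial mean, Igf2r (0.71) and Airn (0.72) were lost between neurons and glia. The other called members were not followed singly, so whether their calls hold under the other alternatives is not given. With 2 libraries per diet, changes inside the intervals given above were not detectable.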

Other observations

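In the sum over all nuclei, 13 of the 40 genes tested (32.5%) were higher in both replicate 1 libraries than in both replicate 2 libraries whatever the diet, and 6 (15%) were lower. Over all 18373 genes tested the shares were 44.1% and 10.9%. Gnas stood at 333 and 337 CPM in MF1 and HF1 against 270 and 221 in MF2 and HF2, and Snrpn at 277 and 301 against 239 and 200. The labels do not say what a replicate number marks, and the pattern was noticed in these data and not tested.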
